A study of Mus musculus with 8 samples.

Results

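Genes of the p53 pathway and cyclin-dependent kinase (CDK) inhibitor genes were compared between kidneys of 28-week-old and 8-week-old NZBWF1 mice. The members were 10 genes taken by symbol: the CDK inhibitors Cdkn1a, Cdkn1b, Cdkn2a, Cdkn2b and Cdkn2c, the p53 gene Trp53, its negative regulator Mdm2, and the p53 targets Ccng1, Gdf15 and Bax. A row named for the gene was used for 7 of them, out of 19505 named genes in all, and Trp53, Gdf15 and Bax were not analysed here. Rows were chosen by gene symbol and, for a gene with several, selected on the mean value over the 8 arrays; each of the 7 had 1 row, so that step made no choice. NZBWF1 mice, the cross of 2 New Zealand inbred strains (Black and White), spontaneously develop a lupus-like disease whose nephritis worsens with age. Total RNA of whole kidney was hybridized to Clariom S Mouse arrays, 1 array per mouse, from 4 mice aged 28 weeks (replicates 6 to 9 in the labels) and 4 mice aged 8 weeks (replicates 1 to 4). All 8 mice were NZBWF1 and the labels give no treatment, so age and disease cannot be told apart here. Values are log2 after robust multi-array averaging (RMA), so a difference of 1 is a 2-fold change. Errors are SDs over the 4 arrays of an age. Tests were made with limma on all 22206 probes, with p adjusted by the Benjamini-Hochberg method over the whole array.

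The p53 protein is a transcription factor that cells with damaged DNA or other stress stabilize. Among its targets are Cdkn1a, which encodes p21 and halts the cell cycle by binding cyclin-CDK complexes, and Mdm2, which encodes the ubiquitin ligase that removes p53 again. CDK inhibitors fall into the CIP/KIP family (p21, p27 and p57), which binds several cyclin-CDK complexes, and the INK4 family (p16, p15, p18 and p19), which binds CDK4 and CDK6. In the kidney, p21 is known as a gene of injured and cell-cycle-arrested tubule cells.

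The starts of the 3 measured p53-pathway members that respond to p53 are shown because their promoters carry p53 letters near the annotated start. RefSeq promoter windows (build GRCm38.p6, 250 bases before to 50 after a start, 10 windows for the 7 members) were searched on both strands for the p53 half-site consensus without mismatch. The half-site was in 1 Cdkn1a window and in those of Mdm2 and Ccng1, and in none of the other 7 windows, and it is in 8.36% of all 32851 promoter windows. A full site, 2 adjoining half-sites with at most 1 of 20 letters off, was searched after the half-sites had been seen. It was in the windows of Cdkn1a and Ccng1 and in 29 of all windows (0.0883%). The windows lie at chr17:29090729-29091028 (Cdkn1a, plus strand, the farther upstream of its 2 annotated starts), chr11:40755237-40755536 (Ccng1, minus strand) and chr10:117710709-117711008 (Mdm2, minus strand), and capitals mark half-sites and full sites.
Cdkn1a: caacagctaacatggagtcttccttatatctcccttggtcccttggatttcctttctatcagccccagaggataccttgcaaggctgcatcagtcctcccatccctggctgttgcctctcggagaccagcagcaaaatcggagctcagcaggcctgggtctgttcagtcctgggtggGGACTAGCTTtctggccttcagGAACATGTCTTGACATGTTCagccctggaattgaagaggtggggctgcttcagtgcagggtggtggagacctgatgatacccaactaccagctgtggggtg
Ccng1: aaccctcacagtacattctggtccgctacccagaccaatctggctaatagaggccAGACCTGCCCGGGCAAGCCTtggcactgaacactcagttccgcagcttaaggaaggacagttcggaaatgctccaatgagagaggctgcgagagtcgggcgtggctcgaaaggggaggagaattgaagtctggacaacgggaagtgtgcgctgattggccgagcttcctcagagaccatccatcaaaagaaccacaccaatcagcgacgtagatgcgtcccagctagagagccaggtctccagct
Mdm2: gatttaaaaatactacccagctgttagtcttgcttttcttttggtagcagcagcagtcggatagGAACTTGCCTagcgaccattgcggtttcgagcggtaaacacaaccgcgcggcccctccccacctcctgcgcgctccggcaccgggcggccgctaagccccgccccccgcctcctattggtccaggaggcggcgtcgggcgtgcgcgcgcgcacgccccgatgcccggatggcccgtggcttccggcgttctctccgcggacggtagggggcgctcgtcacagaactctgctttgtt
In Cdkn1a the full site began 51 bases upstream of the start, where a half-site also matched, and another half-site began 73 bases upstream. In Ccng1 the full site began 195 bases and its exact half-site 185 bases upstream. The half-site of Mdm2 began 186 bases upstream. The GC box GGGCGG was in 7 of the 10 windows (35.7% of all windows), the E-box CACGTG in 1 window, the second of Cdkn2c (7.15%), and TATAAA in none (13.6%). These are matches of letters, not measured binding.

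Cdkn1a was far higher in the older kidneys, and it was the one member that passed the test. It was 11.03, 9.78, 10.96 and 11.25 in 28-week replicates 6, 7, 8 and 9, against 7.39, 7.32, 6.79 and 7.21 in 8-week replicates 1, 2, 3 and 4. The ages did not overlap, and replicate 7 was the lowest of the 28-week mice yet 2.39 above the highest 8-week mouse on the log2 scale. The mean was 10.76 ± 0.66 in the 28-week mice, against 7.18 ± 0.27 in the 8-week mice, a log2 difference of 3.58 (95% interval 2.91 to 4.24), or 11.9-fold (limma, adjusted p = 0.00147). Among named genes this was the 6th largest increase of 19505, and its p was the 4th smallest in either direction. This rise was known when the genes were chosen, so its values describe the gene and its p is no independent evidence. Of the 7 members 1 was called, where 0.968% of all probes were (0.446% as higher and 0.522% as lower). In whole kidney, a change in the number of cells of a type and a change in RNA per cell cannot be told apart. The gene lies on chromosome 17, 29090979 to 29100722 (GRCm38.p6). The platform annotation gives its row 2 RefSeq transcripts, and their levels were not measured apart.

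**Figure D1:**
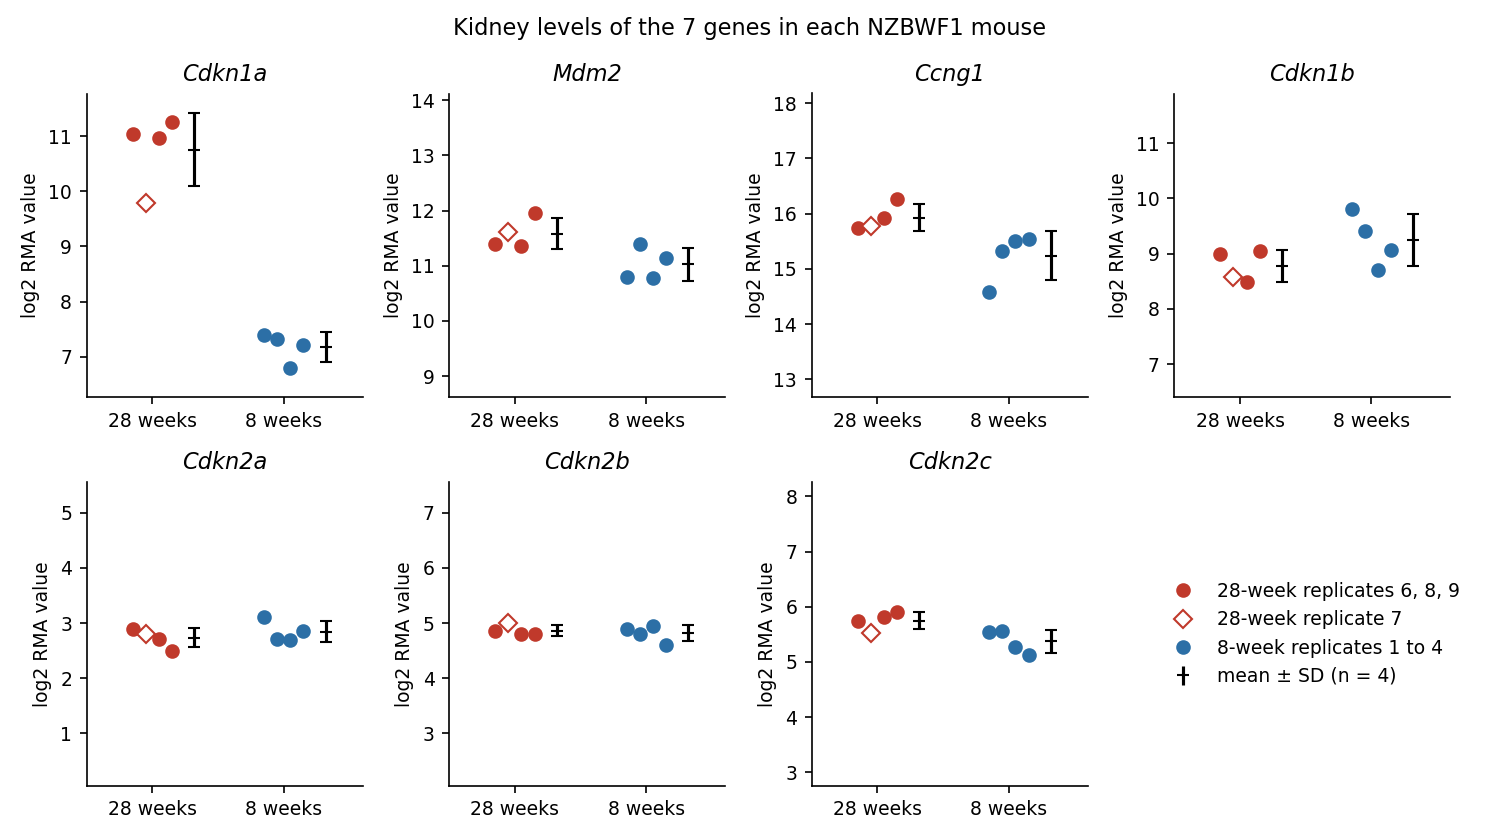
Log2 RMA value of each of the 7 genes in each mouse, 28 weeks left of 8 weeks, 1 point per mouse, with the mean ± SD (n = 4) beside the points; every panel spans the same log2 range. Cdkn1a is separated by age in all mice with 28-week replicate 7 (open diamond) at 9.78, and the other genes differ by less than 1 in their means.

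Mdm2 and Ccng1 had higher means in the older kidneys by much smaller amounts, and neither passed the test. Ccng1 encodes cyclin G1, a p53-induced protein that acts with a phosphatase on Mdm2. It was 15.73, 15.78, 15.92 and 16.27 in 28-week replicates 6 to 9, against 14.58, 15.33, 15.51 and 15.54 in 8-week replicates 1 to 4. All 28-week mice lay above all 8-week mice, as in 8.71% of all probes in either direction (4.38% with the 28-week mice higher and 4.33% with them lower). The log2 difference was 0.69 (95% interval 0.18 to 1.19, unadjusted p = 0.0133, adjusted p = 0.178), with means of 15.93 ± 0.24 in the 28-week mice, against 15.24 ± 0.45 in the 8-week mice.

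Mdm2 was 11.40, 11.61, 11.35 and 11.96 in the 28-week mice, against 10.79, 11.39, 10.78 and 11.14 in the 8-week mice. The groups overlapped, since 28-week replicate 8 lay below 8-week replicate 2. Its log2 difference was 0.56 (95% interval 0.12 to 0.99, unadjusted p = 0.0171, adjusted p = 0.200), with means of 11.58 ± 0.28 in the 28-week mice, against 11.03 ± 0.30 in the 8-week mice. In replicate 7 Mdm2 and Ccng1 lay within the range of the other 28-week mice, at 0.59 and 0.54 above their 8-week means. The intervals of both lay below that of Cdkn1a, whose lower end was 2.91.

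Neither of the other CIP/KIP inhibitor genes passed the test. Cdkn1b encodes p27, which keeps resting cells out of the cycle and is controlled largely by protein turnover. It was 9.0, 8.57, 8.49 and 9.05 in the 28-week mice, against 9.81, 9.41, 8.71 and 9.06 in the 8-week mice. The groups overlapped and the mean was lower at 28 weeks (8.78 ± 0.29) than at 8 weeks (9.25 ± 0.47), with a log2 difference of -0.47 (95% interval -1.01 to 0.07, adjusted p = 0.411). Cdkn1c, the gene of p57 and no member, was 5.75 ± 0.11 in the 28-week mice, against 5.88 ± 0.09 in the 8-week mice (log2 difference -0.13, 95% interval -0.42 to 0.16, adjusted p = 0.721).

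The INK4 genes also stayed short of the threshold. Cdkn2c encodes p18. It was 5.75, 5.53, 5.81 and 5.90 in the 28-week mice, against 5.54, 5.56, 5.27 and 5.12 in the 8-week mice, so that replicate 7 alone of the 28-week mice lay inside the 8-week range. Its log2 difference was 0.38 (95% interval 0.03 to 0.72, unadjusted p = 0.0361, adjusted p = 0.287), with means of 5.75 ± 0.16 in the 28-week mice, against 5.37 ± 0.21 in the 8-week mice. Cdkn2b encodes p15, an inhibitor induced by TGF-beta. It was 4.85, 5.0, 4.81 and 4.80 in the 28-week mice, against 4.90, 4.81, 4.95 and 4.61 in the 8-week mice, with overlapping groups, means of 4.87 ± 0.09 in the 28-week mice, against 4.82 ± 0.15 in the 8-week mice, and a log2 difference of 0.05 (95% interval -0.25 to 0.35, adjusted p = 0.921).

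Cdkn2a, the locus of p16 and of ARF, a protein that restrains Mdm2, is widely used as a mark of senescent cells. It was 2.90, 2.81, 2.72 and 2.50 in the 28-week mice, against 3.11, 2.71, 2.70 and 2.85 in the 8-week mice. The groups overlapped, and all 8 values lay close to 2.31, the lowest value deposited for any probe, so the row was too dim to say whether the gene was expressed. Its log2 difference was -0.11 (95% interval -0.45 to 0.23, adjusted p = 0.817), with means of 2.73 ± 0.17 in the 28-week mice, against 2.84 ± 0.19 in the 8-week mice. The row is annotated to 2 RefSeq transcripts of the locus and does not tell them apart. Of the remaining inhibitors that are no members, Cdkn2d, the gene of p19, was 6.44 ± 0.37 in the 28-week mice, against 6.17 ± 0.38 in the 8-week mice (adjusted p = 0.665), and Cdkn3, the gene of a phosphatase of CDK2 that is itself high in dividing cells, was 5.76 ± 0.50 in the 28-week mice, against 5.40 ± 0.12 in the 8-week mice (adjusted p = 0.536).

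**Figure D2:**
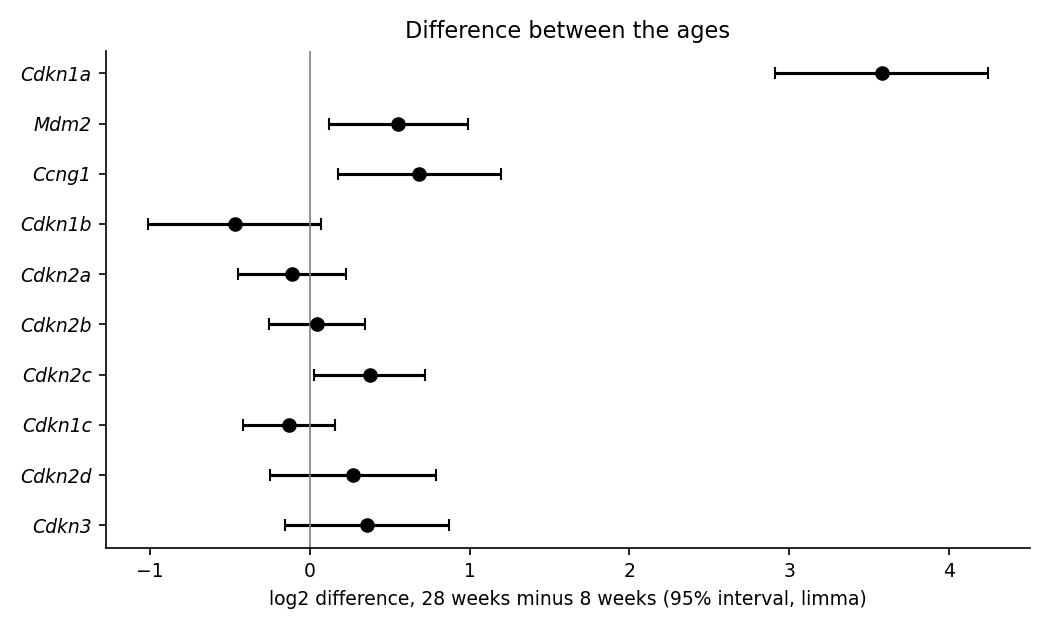
Log2 difference, 28 weeks minus 8 weeks, with its 95% interval from limma (n = 4 arrays per age), for the 7 members and 3 further CDK inhibitor genes. Cdkn1a stands at 3.58, and the interval of Ccng1, the highest-reaching of the other 9 genes, ends at 1.19.

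Among 36 other measured p53 targets, of 40 listed, 1 rose and none fell, where 0.446% and 0.522% of all probes did. That gene was Dram1, which encodes a lysosomal membrane protein of p53-induced autophagy: it was 8.54, 7.75, 8.55 and 8.13 in the 28-week mice, against 7.25, 6.76, 7.0 and 6.85 in the 8-week mice (2.42-fold, adjusted p = 0.0308). The groups did not overlap. The list had 25 positive and 11 negative differences and a median of 0.19, where the median of all probes was -0.01 and 10747 of 22206 differences were positive. Without 28-week replicate 7, 4 of the 36 were called higher and none lower (3.63% and 1.95% of all probes): Dram1, Plk3, a stress-induced kinase gene, Ckap2, a spindle gene, and Casp1, the gene of an inflammatory caspase. The last 3 were named after their values were seen, and their log2 differences over all mice were 1.14, 1.15 and 0.75.

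**Figure D3:**
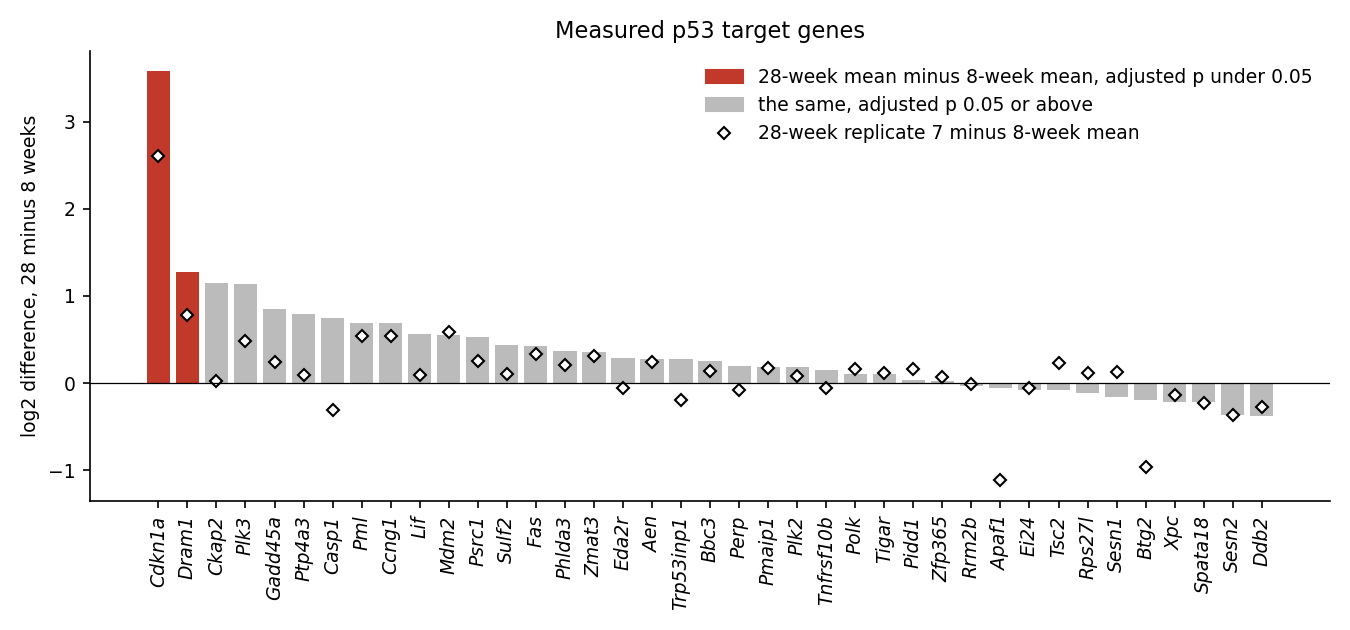
Log2 difference, 28 weeks minus 8 weeks, of the 36 other p53 targets and of Cdkn1a, Mdm2 and Ccng1, ordered by size; red bars passed the test, and diamonds give 28-week replicate 7 minus the 8-week mean. Cdkn1a reaches 3.58 and Dram1 1.28, and no other target exceeds 1.15.

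None of 20 measured p53 relatives and regulators passed. The smallest p belonged to Chek1 and Chek2, which encode the checkpoint kinases that relay DNA damage to p53 and CDC25. Chek1 was 7.10, 6.77, 7.46 and 7.31 in the 28-week mice, against 6.09, 6.07, 6.59 and 6.36 in the 8-week mice (log2 difference 0.88, adjusted p = 0.0624). Chek2 had a log2 difference of 0.56 (adjusted p = 0.145). In both the ages did not overlap, as in 3 of the 20 genes and 4.38% of all probes with the 28-week mice higher. These 2 genes were taken for their small p, so this adds no support. The list median was 0.06, with 14 positive and 6 negative differences. Without replicate 7, Chek1 was called higher, as were the mitotic kinase genes Plk1 and Aurka, both named after their values were seen. None of the 20 was called lower in that fit, where 3.63% of all probes were called higher and 1.95% lower.

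Genes of cycling cells, whose division CDK inhibitors restrain, had higher means in 28-week replicates 6, 8 and 9, the mice with the highest Cdkn1a. Of 22 measured S and M phase genes 20 had a positive difference, with a median of 0.94, and none passed. Mki67, the proliferation marker, which was named after its values were seen, was 10.56, 6.61, 11.04 and 10.24 in 28-week replicates 6 to 9, against 6.76, 6.23, 6.55 and 6.89 in the 8-week mice (adjusted p = 0.105). Replicate 7 was thus inside the 8-week range for Mki67, while its Cdkn1a was 6.07-fold above the 8-week mean. The smallest p of the list belonged to Bub1b and Ube2c, genes of mitotic progression, with log2 differences of 0.93 and 2.0 (adjusted p = 0.0501 and 0.0576). The mean of the list over its members, each minus its 8-week mean, was 1.11, 0.03, 1.5 and 1.12 in 28-week replicates 6 to 9 and between -0.06 and 0.05 in the 8-week mice. Without replicate 7, 13 of the 22 were called higher and none lower, where 3.63% and 1.95% of all probes were.

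Of 23 genes of G1 cyclins, CDKs, RB proteins and E2F factors, the direct partners of the inhibitors, none passed, 17 differences were positive and the median was 0.15. Cdk6, a target kinase of the INK4 inhibitors, was 10.62 ± 0.49 in the 28-week mice, against 9.79 ± 0.15 in the 8-week mice (adjusted p = 0.116). Pcna, the replication clamp gene, to which p21 also binds, was 13.28, 12.28, 13.89 and 13.52 in the 28-week mice, against 12.00, 12.10, 12.34 and 12.42 in the 8-week mice (log2 difference 1.03, adjusted p = 0.131). Again replicate 7 lay inside the 8-week range. Without replicate 7, 5 of these genes were called higher and 1 lower, where 3.63% and 1.95% of all probes were.

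Replicate 7 lay nearer to the 8-week mice than to its own age over the whole array, while its Cdkn1a did not. Across probes it correlated at a mean of 0.9858 with the other 28-week arrays and 0.9897 with the 8-week arrays, and in none of the other 7 arrays was the mean higher with the other age. On the first principal component, with 39.4% of the variance, it was at -12.9, against 31.8 to 59.9 in the other 28-week mice and -39.5 to -7.66 in the 8-week mice. Other arrays also differed from their own age: 28-week replicate 6 correlated at 0.9859 with the other 28-week arrays and lay highest on that component, and 8-week replicate 1 correlated at 0.9832 with the other 8-week arrays, whose means were 0.9883 to 0.9902. Without 28-week replicate 7, 1237 probes (5.57%) were called, against 215 with it, and Cdkn1a was 15-fold higher (adjusted p = 2.46e-05). For each probe called without replicate 7, the difference of replicate 7 from the 8-week mean was taken as a share of the difference of the other three. The median share was 23.5% over these probes, and 639 of the 1237 had replicate 7 beyond the 8-week range in the same direction. For Cdkn1a the share was 66.7%, and 149 of 1137 named genes (13.1%) had a larger one. It was 54.5% for Dram1, 48.6% for Chek1, 4.82% for Pcna and 0.0624% for Mki67. Larger shares than that of Cdkn1a included those of Bcl6 (114%), Slc22a6 (108%), Atf4 (93.9%) and Igfbp4 (82.9%). Arntl was near it, at 63.0%. These shares are descriptions over genes of the same arrays, with no test. Probes entered this comparison by their difference without replicate 7, which favours low shares in that mouse. Cdkn1a was chosen with its rise known, so its place among these genes is no evidence.

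Marker lists of leukocytes and of injured tubule had higher means in 28-week replicates 6, 8 and 9, the mice with the highest Cdkn1a, and their part in the Cdkn1a difference was not tested. All 15 measured leukocyte markers had positive differences and none passed. The mean of that list over its members, minus the 8-week mean, lay between 1.22 and 2.38 in 28-week replicates 6, 8 and 9, at 0.33 in replicate 7 and between -0.08 and 0.16 in the 8-week mice. Ptprc, the pan-leukocyte gene, was 10.34, 6.79, 9.75 and 8.91 in the 28-week mice, against 7.05, 7.17, 7.34 and 7.45 in the 8-week mice, so replicate 7 had the lowest value of all. Jchain, a gene of antibody-secreting cells, differed from that: it was 12.79, 7.52, 10.47 and 5.83 in the 28-week mice, against 4.49, 4.47, 3.49 and 5.08 in the 8-week mice (adjusted p = 0.0971), and replicate 7 lay above every 8-week mouse. Likewise above the 8-week range in replicate 7 were Csf1r, Cd3d and Cd79a, genes of macrophages, T cells and B cells. These were named after their values were seen. They were at 11.05, 5.45 and 3.73 there, against at most 10.70, 5.19 and 3.70 at 8 weeks. The myeloid genes Adgre1 and, named afterwards, Itgam lay below every 8-week mouse in replicate 7, at 5.54 and 3.97. Lyz2 lay inside the 8-week range there, at 8.78. The T cell genes Cd3e, Cd4 and Cd8a, also named afterwards, lay inside the 8-week range in replicate 7, at 4.64, 6.12 and 5.90. Nkg7, likewise named afterwards, lay below every 8-week mouse there, at 3.17. Without replicate 7, 7 of the 15 were called higher and none lower, where 3.63% and 1.95% of all probes were. For 11 measured injured tubule markers the list mean was 1.77 to 2.65 in replicates 6, 8 and 9, 0.20 in replicate 7 and -0.12 to 0.25 in the 8-week mice. In this list Vcam1 and Dcdc2a rose and none fell, where 0.446% and 0.522% of all probes did. Lcn2 was 13.80, 8.21, 15.84 and 15.77 in the 28-week mice, against 8.05, 7.64, 6.30 and 6.61 in the 8-week mice (adjusted p = 0.0752). Havcr1, the KIM-1 gene of injured proximal tubule cells, overlapped between the ages: it was 15.59, 13.62, 16.51 and 17.22 in the 28-week mice, against 14.15, 15.71, 14.79 and 15.11 in the 8-week mice (log2 difference 0.80, adjusted p = 0.655), with replicate 7 below every 8-week mouse. Sox9 and Krt20, named after their values were seen, had log2 differences of -0.15 and 0.46 (adjusted p = 0.810 and 0.709).

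Of the markers of kidney tubules, Slc34a1 and Umod were among the brightest rows of the array by their mean over all 8 mice, and Slc7a13 was dim, between 4.87 and 5.75. The proximal tubule gene Slc34a1 was 17.64 ± 0.23 in the 28-week mice, against 18.21 ± 0.24 in the 8-week mice, and the thick ascending limb gene Umod was 18.60 ± 0.12 in the 28-week mice, against 18.37 ± 0.10 in the 8-week mice. All 10 proximal tubule markers had negative differences. Of these 1 was called, Slc22a6 (log2 difference -0.91, adjusted p = 0.0313), where 0.522% of all probes fell. None of the 9 distal nephron, 5 podocyte, 7 endothelial or 7 mesenchymal markers passed, with list medians of -0.26, -0.37, 0.36 and 0.75. Relative to the 8-week mean, the endothelial and mesenchymal lists did not follow Cdkn1a mouse by mouse. The endothelial mean was -0.08 in 28-week replicate 8, and the mesenchymal mean was 0.99 in 8-week replicate 1. The distal nephron mean was -0.58, -0.02, -0.57 and -0.59 in 28-week replicates 6 to 9, against -0.22 to 0.33 in the 8-week mice. Its genes went both ways, with 4 positive and 5 negative differences. They ran from -2.71 for Calb1 to 0.99 for Slc12a1 on the log2 scale. The podocyte mean was -0.50 to -0.17 in the 28-week mice, against -0.41 to 0.34 in the 8-week mice.

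**Figure D4:**
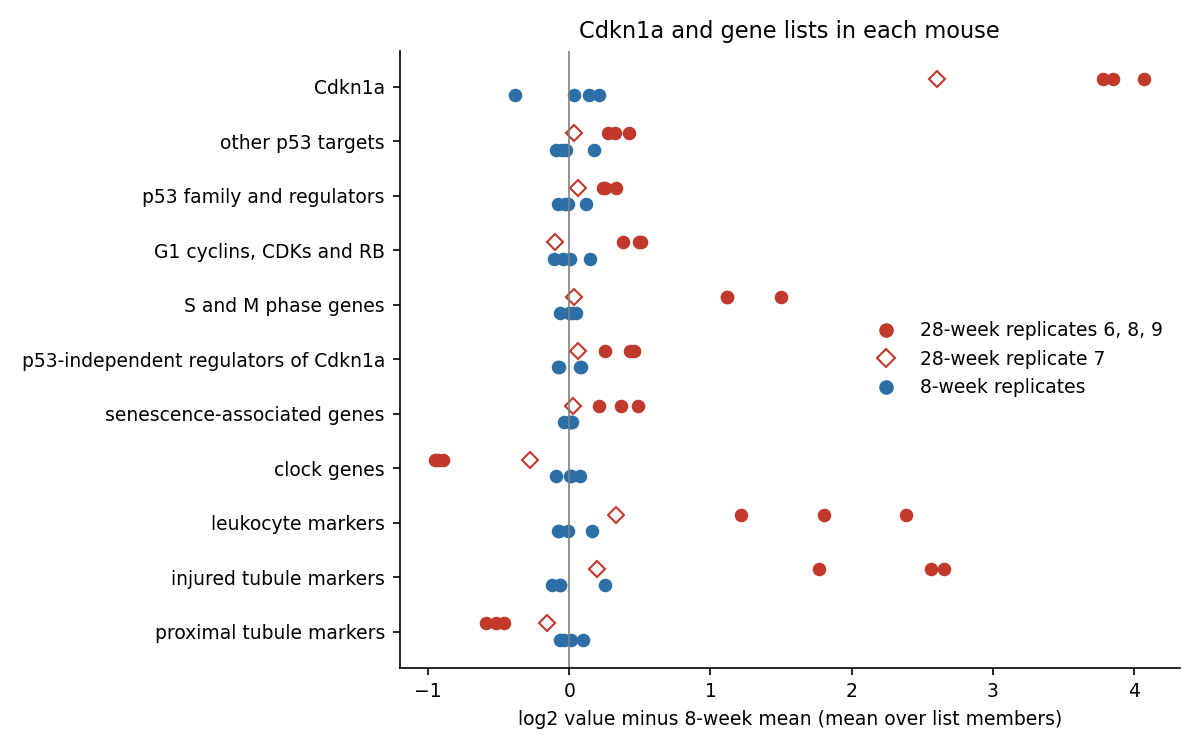
For each mouse, the log2 value minus the 8-week mean, for Cdkn1a (top) and as the mean over the measured members of 10 gene lists; red is 28 weeks, drawn above blue 8 weeks, and the open diamond is 28-week replicate 7. Replicate 7 lies at 2.60 for Cdkn1a and between -0.28 and 0.33 for the lists. A list mean mixes directions: the clock list had 5 positive and 13 negative differences. Among genes called without replicate 7, that mouse lay beyond the 8-week range in 9 of 12 clock and 5 of 6 senescence-associated genes. It did so in 3 of 13 S and M phase genes, and in 639 of all 1237 probes so called.

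Genes of transcription factors that act on Cdkn1a other than p53 and the clock were mostly not called. Of 22 measured, Bcl6, a transcriptional repressor, rose and none fell, where 0.446% and 0.522% of all probes did. The list median was 0.07. Bcl6 was 7.82, 7.99, 7.67 and 7.81 in the 28-week mice, against 6.76, 5.69, 5.89 and 6.35 in the 8-week mice (3.14-fold, adjusted p = 0.0167). Unlike Cdkn1a, it was highest in replicate 7. Without that mouse 6 genes were called higher: Bcl6, Runx1, Stat3, Klf6, Myc and Irf1, all but Bcl6 named after their values were seen. No gene of the list was called lower in that fit, where 3.63% of all probes were called higher and 1.95% lower.

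The list of clock genes had 7 calls, the most of the lists over all 8 mice, and Cdkn1a is known from mouse liver to be repressed by REV-ERB receptors and activated by ROR receptors. Of its 18 measured genes 2 rose and 5 fell, where 0.446% and 0.522% of all probes did. Without replicate 7, 3 were called higher and 9 lower (3.63% and 1.95% of all probes). These were 12 of 18 genes, against 13 of 22 for the S and M phase genes. Arntl, the gene of the clock activator BMAL1, was 9.48, 7.70, 9.08 and 8.08 in the 28-week mice, against 6.15, 5.92, 5.37 and 5.34 in the 8-week mice (7.41-fold, adjusted p = 0.0132). Dbp, a clock output factor, was 10.13, 14.06, 11.05 and 12.14 in the 28-week mice, against 16.47, 16.27, 16.50 and 16.61 in the 8-week mice (adjusted p = 0.0214). The REV-ERB gene Nr1d1, named after its values were seen, was 8.27, 11.25, 8.69 and 9.85 in the 28-week mice, against 12.34, 11.79, 11.13 and 11.72 in the 8-week mice (log2 difference -2.23, adjusted p = 0.0932). In each of Arntl, Dbp and Nr1d1 replicate 7 was the 28-week mouse nearest to, or inside, the 8-week range. The other REV-ERB gene, Nr1d2, fell (log2 difference -1.57, limma, adjusted p = 0.0457). Rora, the measured ROR gene of the list, was not called (log2 difference -0.19, limma, adjusted p = 0.630). Both were named after their values were seen. The hour of collection is not given in the sources used here, and its part in the Cdkn1a difference was not tested.

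Senescence-associated genes gave no single direction. Of 18 measured, none rose and 2 fell, where 0.446% and 0.522% of all probes did. Both were genes of insulin-like growth factor binding proteins. At 28 weeks Igfbp3 was 9.87 ± 0.51, against 11.35 ± 0.32 at 8 weeks (adjusted p = 0.0367), and Igfbp4 was 14.06 ± 0.20, against 15.03 ± 0.13 at 8 weeks (adjusted p = 0.0258). The list median was 0.20, with 15 positive differences. Without replicate 7, 4 were called higher, and Igfbp3 and Igfbp4 lower, where 3.63% and 1.95% of all probes were.

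The genes whose profile was nearest to that of Cdkn1a were Arntl, H2-DMb2, Vcam1, Igf2, Clec4a1 and Dcdc2a, in that order. Nearness was the root mean square difference over the 8 arrays between log2 values minus each gene's 8-week mean, and it ran from 0.67 for Arntl to 0.81 for Dcdc2a. Arntl kept closest to Cdkn1a in replicate 7, at 2.0 above its 8-week mean against 2.60. Igf2, a fetal growth factor gene, was 12.78, 13.24, 12.53 and 13.75 in the 28-week mice, against 8.33, 9.20, 8.98 and 8.77 in the 8-week mice, with replicate 7 the second highest. Clec4a1, a myeloid lectin gene, and H2-DMb2, an antigen presentation gene, were at 6.13 and 5.52 in replicate 7, against at least 9.15 and 8.19 in the other 28-week mice.

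**Figure D5:**
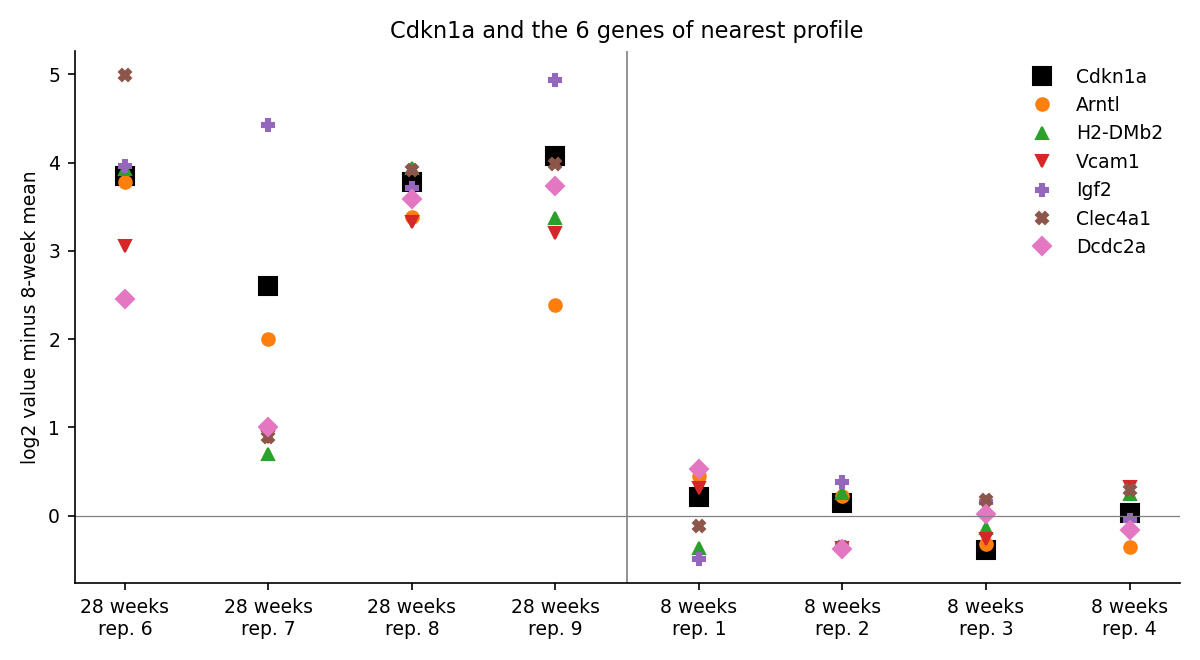
Log2 value minus the 8-week mean in each mouse for Cdkn1a (black squares) and the 6 genes of nearest profile, 28-week replicates left and 8-week replicates right. In replicate 7 Cdkn1a lies at 2.60, Igf2 above it and the other 5 genes below it.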

How the data were processed

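Kidney mRNA of 8 NZBWF1 mice was measured on 1-colour Clariom S Mouse arrays, 4 at 28 weeks and 4 at 8 weeks. The authors deposited values made with RMA, per the submitters' processing notes, which corrects background, normalizes between arrays and summarises probes. Its version is not given in the sources used here, nor is the log base: the deposited values were read as log2, as RMA gives by convention and as their range (2.31 to 19.89) allows. RMA compresses folds of dim probes and gives no detection call. Platform annotation named 19572 of 22206 probes, and no symbol was taken from a probe with several.

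The log2 difference, 28 minus 8 weeks, was tested on all probes without a filter with lmFit and eBayes (limma 3.58.1, R 4.3.3) and Benjamini-Hochberg adjustment, at a threshold of 0.05. Promoter windows came from RefSeq (GRCm38.p6). The members and 17 gene lists were chosen with earlier results of these data known. Named genes were the members, up to 4 called genes per list (or the 2 of smallest p), the first names of the marker lists, and the 6 profiles nearest to Cdkn1a. Without scan dates no batch could be examined. Each array was taken as 1 mouse, and the number of arrays limits the precision. The code was tested on simulated data. Python 3.11.15 with pandas 2.3.3 made the tables, and matplotlib 3.10.9 the figures.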

Additional observations from a re-analysis of the deposited data

How the results depend on the processing

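Cdkn1a was called as higher at 28 weeks under all 19 alternatives, with log2 differences from 3.41 to 3.97 and adjusted p of at most 0.0127, and it was the one member called in each of them. Leaving out each mouse in turn gave 3.41 to 3.90. The alternatives were 3 other normalizations, 2 filters on dim probes, the mean of a gene's rows, trend and robust options and array weights. They also took in 2 stricter thresholds, each mouse left out, and 8-week replicate 1 with 28-week replicate 7 left out. The filters, the mean of rows, the trend and robust options and the stricter thresholds could not change the Cdkn1a difference of 3.58. Those bear on its p or threshold only, and adjusted p under 0.01 was settled by the main fit. Ccng1, Mdm2, Cdkn2c, Cdkn1b and Cdkn2a kept their sign and stayed uncalled in every alternative that gave a value; Cdkn2a was too dim for both filters and Cdkn2b and Cdkn2c for the stricter one. The Cdkn2b difference was -0.014 with arrays centred on their medians and -0.022 without 8-week replicate 4 (-0.022 to 0.092 over the mice left out); it was not called in any, and the cause was not tested.

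The 215 calls over all probes were 399 without the dimmest 50% of probes, 399 with trend and robust options, 873 with array weights, 18 at adjusted p under 0.01, 16 with treat at 0.5 and 1384 with 8-week replicate 1 and 28-week replicate 7 both left out. They ran from 25 to 1237 over the mice left out. Leaving out a 28-week mouse gave 56 for replicate 6, 1237 for 7, 28 for 8 and 25 for 9; leaving out an 8-week mouse gave 94 for replicate 1, 36 for 2, 30 for 3 and 26 for 4. No paired analysis was possible because the ages share no replicate number. With 4 mice per age and no detection call, Cdkn2a and other dim rows cannot be read as absent.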

Other observations

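Relatives of Bax were measured in 18 genes of the BCL-2 family, which set the threshold for cell death at the mitochondrion, and none passed (median log2 difference 0.04). The smallest p belonged to Bcl2a1d and Bcl2a1b, close paralogs of an anti-death gene of leukocytes whose probes may share signal, with log2 differences of 1.88 and 1.97 (adjusted p = 0.0897 and 0.111). Bcl2a1d was 7.23, 5.11, 7.24 and 6.24 in 28-week replicates 6 to 9, against 5.30, 4.03, 4.18 and 4.78 in the 8-week mice, so replicate 7 lay inside the 8-week range. The p53-induced death genes Bbc3 and Pmaip1, named after their values were seen, differed by 0.25 and 0.19 on the log2 scale.

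Among 14 genes of the integrated stress response, which slows translation in stressed cells, Atf4 rose and none of the other 13 genes passed. Over all probes 0.446% rose and 0.522% fell. Atf4, the central transcription factor gene of that response, was 10.88, 10.84, 10.94 and 10.87 in the 28-week mice, against 10.29, 9.98, 9.54 and 10.04 in the 8-week mice (1.89-fold, adjusted p = 0.042). The 28-week mice, replicate 7 included, lay closer together than the 8-week mice and did not overlap them. Without replicate 7, 5 genes of the list were called higher and none lower, where 3.63% and 1.95% of all probes were.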
